A study of Mus musculus with 2 samples.

Results

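The miR-29 family consists of 4 hairpin genes in the mouse, Mir29a, Mir29b-1, Mir29b-2 and Mir29c, and all 4 had a row among the 1973 miRNA gene rows counted in fetal liver. They were taken by name, matching the version-free Ensembl identifiers of the rows to GENCODE. The series held 1 group with 2 biological replicates, total RNA of whole liver from B6NCrl mouse embryos at embryonic day 16.5, sequenced for RNAs in a size range below 30 per the labels. Each replicate was a pool of livers of both sexes from healthy embryos without a named allele or treatment. Replicate 2 pooled 41 embryos, and the labels give no number for replicate 1. With a single group, the questions that can be addressed are how the family's counts were spread over its genes and clusters, and how far the 2 pools differed.

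MicroRNAs are cut from a hairpin precursor, and 1 of its arms, the 5p or the 3p, is loaded onto an Argonaute protein, where bases 2 to 8 (the seed) choose the messenger RNAs that are repressed. For miR-29 the 3p arm is the guide arm, and its known targets include messages of fibrillar collagens and elastin, of the de novo DNA methyltransferases Dnmt3a and Dnmt3b, and of the anti-apoptotic protein Mcl1. In adult liver the family is known as a brake on collagen production by hepatic stellate cells, and its level falls in fibrosis. None of these targets was measured here.

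The mature sequences are shown because the counts of the 4 genes turn on how alike their arms are. All 4 genes matched an entry in the RefSeq table (GRCm38.p6), and the 3p sequences follow 5′ to 3′ with the seed in capitals.
miR-29a-3p (Mir29a): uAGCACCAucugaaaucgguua
miR-29c-3p (Mir29c): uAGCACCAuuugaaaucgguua
miR-29b-3p (Mir29b-1 and Mir29b-2): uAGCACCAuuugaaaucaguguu
The 3 distinct sequences carried 1 seed, and no other gene in the table had a mature sequence with it. Counted from 1 at the 5′ end, miR-29c-3p differed from miR-29a-3p by C10U alone. Compared position by position without gaps, miR-29b-3p differed from miR-29a-3p by C10U, G18A, U21G and A22U and ran 1 base longer, with 23 bases against 22. The first 9 bases were therefore common to all, and the first 17 were common to miR-29b-3p and miR-29c-3p.

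The 5p arms, the passenger side, were each found in 1 hairpin of the table. They are shown with bases 2 to 8 in capitals because they set the 2 copies of Mir29b apart where the 3p arm does not.
miR-29a-5p: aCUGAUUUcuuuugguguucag
miR-29c-5p: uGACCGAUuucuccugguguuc
miR-29b-1-5p: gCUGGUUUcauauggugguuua
miR-29b-2-5p: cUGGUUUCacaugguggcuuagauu
These 4 arms had 4 different sequences at bases 2 to 8. That of miR-29b-2-5p was also held by Mir6338, and those of the other 3 were in no other gene of the table.

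The genes form 2 clusters. Mir29a (ENSMUSG00000065610.1) sits on the minus strand of chromosome 6 (mm10, 31062660 to 31062747) and Mir29b-1 (ENSMUSG00000065604.1) at 31063023 to 31063093 of the same strand, with 275 bases between the hairpins. Mir29a overlapped no other annotated gene, and Mir29b-1 shared 2 bases with the 3′ end of Gm27019, a single-exon long noncoding RNA gene. Mir29b-2 (ENSMUSG00000065412.2) sits on the plus strand of chromosome 1 at 195037040 to 195037120 and Mir29c (ENSMUSG00000065548.1) at 195037547 to 195037634, with 426 bases between them. Both of these hairpins lie within an exon of a transcript of the noncoding host gene A330023F24Rik and, on the opposite strand, within the 3′ untranslated region of Cd46, which encodes a complement regulatory protein.

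Sense-strand counts came to 5930074 in replicate 1 and 5102289 in replicate 2, so 1 count was worth 0.169 and 0.196 CPM, a gene's count relative to the sum over all gene rows of its library. Each read covers a small RNA nearly whole, so counts were not divided by hairpin length. No count lay on the other strand of any of the 4 genes in either library.

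Mir29a carried most of the family's counts and Mir29c nearly all of the rest, while Mir29b-1 was at a few CPM and Mir29b-2 near the limit of detection. The 4 genes together held 4843 counts in replicate 1 and 3541 in replicate 2. That is 817 and 694 CPM, with a mean of 755 ± 86.7 CPM (SD, n = 2), or 0.0755% ± 0.0087 of all sense-strand counts. The chromosome 6 cluster held 88.2% ± 1.33 of the family's counts and the chromosome 1 cluster 11.8% ± 1.33. These totals and shares, and those of each gene below, are of uniquely placed reads and leave out reads that fit both Mir29b loci.

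Mir29a had 4293 counts in replicate 1 and 3060 in replicate 2. Its level was 724 CPM (95% Clopper-Pearson interval 702 to 746) and 600 CPM (579 to 621), with a mean of 662 ± 87.8 CPM, rank 102 of the 1973 genes. It held 88.6% of the family's counts in replicate 1 (interval 87.7% to 89.5%) and 86.4% in replicate 2 (85.2% to 87.5%). The 2 intervals of its level did not overlap, and replicate 1 was the higher library.

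Mir29c had 518 and 445 counts, which gave 87.4 CPM (80.0 to 95.2) in replicate 1 and 87.2 CPM (79.3 to 95.7) in replicate 2. The mean was 87.3 ± 0.096 CPM, at rank 191. Its share of the family was 10.7% (9.84% to 11.6%) and 12.6% (11.5% to 13.7%). The level of Mir29c was nearly the same in both pools, and both of its values lay far below those of Mir29a.

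Mir29b-1 had 24 counts in replicate 1 and 30 in replicate 2, or 4.05 CPM (2.59 to 6.02) and 5.88 CPM (3.97 to 8.39). Mir29b-2 had 8 and 6 counts, or 1.35 CPM (0.582 to 2.66) and 1.18 CPM (0.432 to 2.56). A count of 0 allows up to 3 counts (a 1-sided 95% bound), which is 0.506 CPM for replicate 1 and 0.588 for replicate 2. The lower bound for Mir29b-2 lay just above that limit in replicate 1 and below it in replicate 2, while those for Mir29b-1 lay above it in both. These lower bounds are from 2-sided intervals, so for Mir29b-2, close to the limit, the side on which it falls is not settled. In replicate 1 the intervals of the 2 Mir29b genes overlapped narrowly, and in replicate 2 they did not. These intervals reflect the counting error of reads alone. Reads copied by PCR are not separate molecules, so the intervals may be too narrow.

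**Figure D1:**
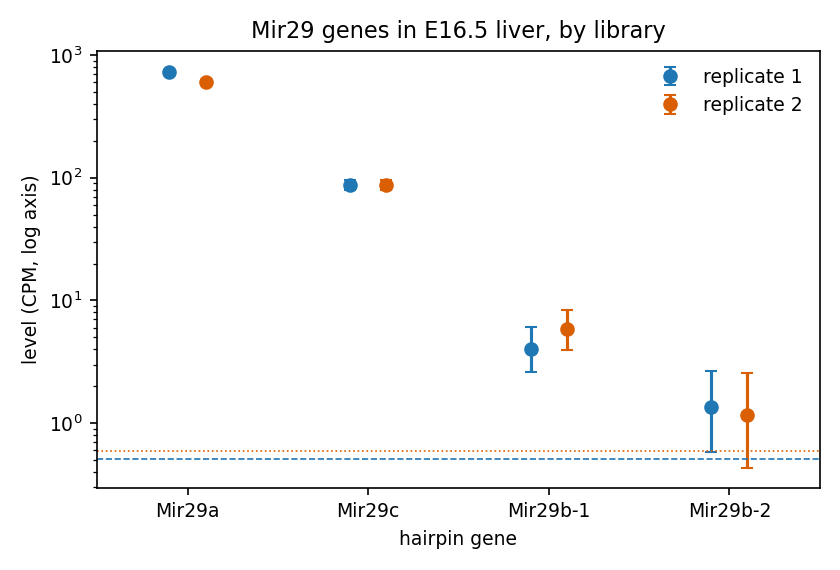
Level of each Mir29 hairpin gene in CPM (log axis) in the 2 libraries of E16.5 liver; points are library values, bars 95% Clopper-Pearson intervals, and the horizontal lines mark 3 counts in replicate 1 (dashed) and replicate 2 (dotted). Mir29a sits at 724 and 600 CPM, Mir29c at 87.4 and 87.2 CPM, and Mir29b-1 and Mir29b-2 lie below 10 CPM.

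The order Mir29a, Mir29c, Mir29b-1, Mir29b-2 was the same in both libraries. The level of Mir29a was 8.28 times that of Mir29c in replicate 1 and 6.87 times in replicate 2 (log2 3.05, counting SE 0.07, and 2.78, counting SE 0.07). Mir29b-1 exceeded Mir29b-2 by 2.88-fold and 4.69-fold, on log2 ratios of 1.53 and 2.23 with counting SEs of 0.57 and 0.62. These folds compare counts of different sequences, and neither their SEs nor the spread between libraries covers a bias in ligation or amplification that both libraries share.

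Within the chromosome 6 cluster the level of Mir29a was 175 times that of Mir29b-1 in replicate 1 and 100.3 times in replicate 2 (log2 7.45, counting SE 0.29, and 6.65, counting SE 0.26). Within the chromosome 1 cluster Mir29c exceeded Mir29b-2 by 61-fold and 68.5-fold (log2 5.93, counting SE 0.50, and 6.10, counting SE 0.57). In both clusters, then, the Mir29b gene was the lower one in both libraries.

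How reads were placed bears on these folds. Reads that map to several loci are in a tally outside the gene counts, 28.1% of all tallied reads in replicate 1 and 28.2% in replicate 2, and that tally is not split by miRNA. The whole miR-29b-3p sequence occurs in both Mir29b hairpins, and the longest stretch they share runs to 25 bases, the mature arm with 2 bases before it.
Stretch shared by Mir29b-1 and Mir29b-2: ucuagcaccauuugaaaucaguguu
A read within this stretch fits both loci equally. Of the 18-base words of the 3p arm, 6 of 6 in each Mir29b gene occur in another hairpin of the table, against 0 of 5 in Mir29a and 0 of 5 in Mir29c. In the 5p arms the shared number was 0 in each of the 4 genes. The level of miR-29b-3p therefore cannot be read from the 2 Mir29b rows. Those rows, the family total and the share of each cluster and gene carry this doubt, and the rows and the total may be too low. How many of the multimapping reads are miR-29b-3p was not tested, and the 5p and 3p arms are not separated in the counts.

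Mir29c also shared a stretch with Mir29b-1, 22 bases that begin 5 bases before the 3p arm and stop within it, at its base 17.
Stretch shared by Mir29b-1 and Mir29c: uugucuagcaccauuugaaauc
A read of miR-29c-3p that reaches base 18 lies outside this stretch. Mir29a shared at most 14 bases with another member.

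**Figure D2:**
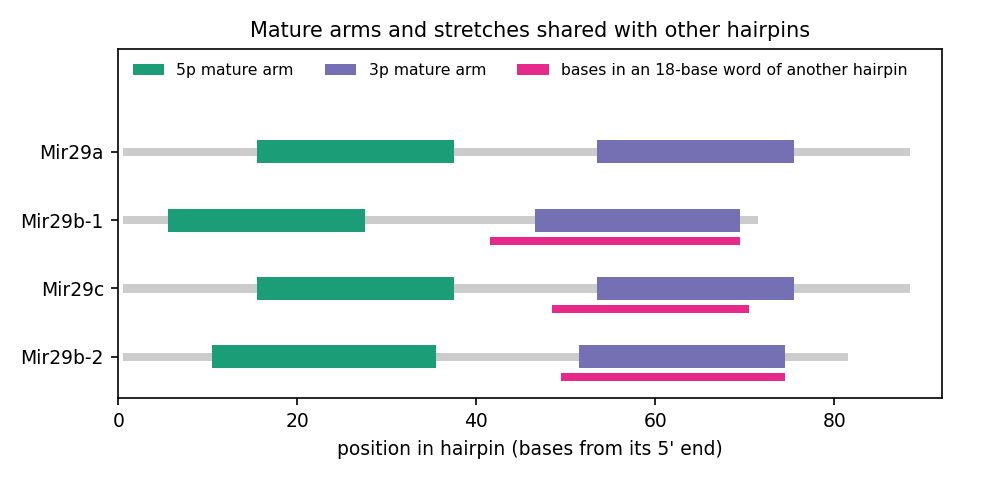
Map of the 4 hairpins by position in bases from the 5′ end, with the 5p mature arm in green, the 3p mature arm in violet and, below each hairpin, bases lying in an 18-base word that occurs in another hairpin of the RefSeq table. The shared stretch covers the whole 3p arm of both Mir29b genes, part of that of Mir29c and none of Mir29a.

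Other pairs of miRNA genes from 1 cluster gave a scale for such ratios. Of 20 pairs listed, 17 had a row for both genes and 16 had at least 10 counts for each gene. The higher gene exceeded the lower by between 1.02-fold (Mir27a and Mir24-2) and 1947-fold (Mir17 and Mir19b-1), with a median of 4.61-fold. Of these 16 pairs, 2 were more unequal than Mir29a and Mir29b-1 and 4 more unequal than Mir29c and Mir29b-2, on mean log2 ratios of 7.05 ± 0.57 and 6.01 ± 0.12 (SD, n = 2).

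In 8 of the 16 pairs the lower gene has a mature sequence that a second gene of the table also holds, as both Mir29b genes do. Their folds ran from 1.02 to 1947 with a median of 3.16. In 6 pairs the lower gene shares no whole mature sequence. These ran from 1.86-fold to 111-fold with a median of 4.07, the highest being Mir206 over Mir133b, a pair of muscle miRNAs. Sequences that are only nearly alike were not counted as shared, and Mir133a-1 and Mir133a-2 had no mature entry to set against Mir133b. The remaining 2 pairs, Mir30d over Mir30b at 33.6-fold and Mir143 over Mir145a at 79.4-fold, had no entry for the lower gene. The part of shared sequences in these folds was not tested.

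**Figure D3:**
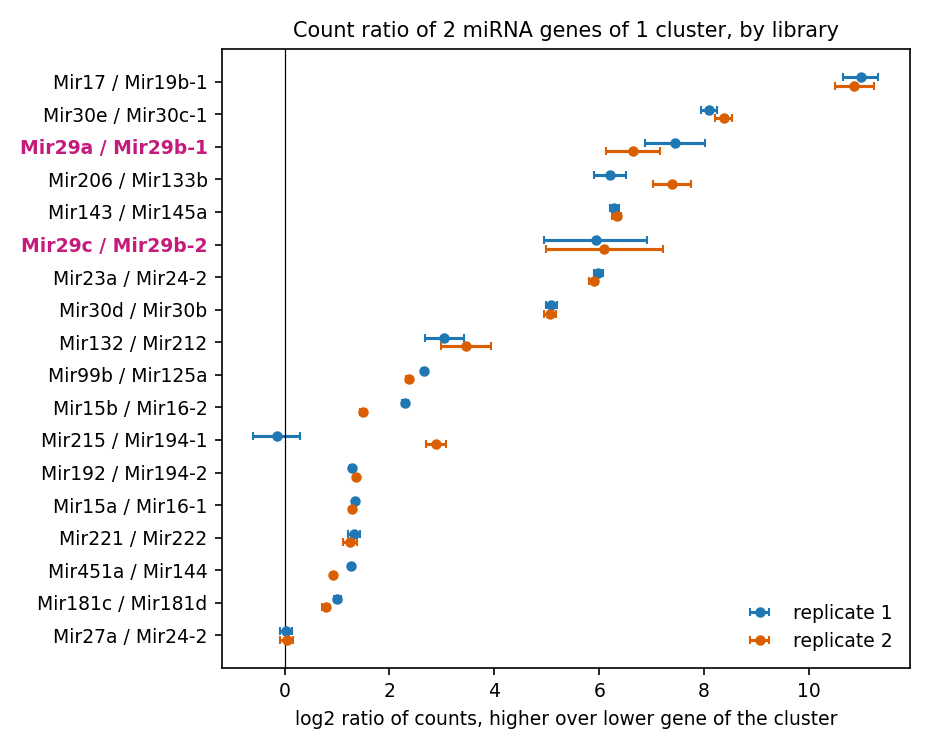
Log2 ratio of counts of the higher over the lower gene for 18 pairs of miRNA genes that share a cluster, in replicate 1 and replicate 2, with bars of the 95% counting interval; the 2 Mir29 pairs are in bold. Mir29a over Mir29b-1 (7.45 and 6.65) and Mir29c over Mir29b-2 (5.93 and 6.10) lie toward the unequal end of the range.

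Between the 2 pools, Mir29a was lower in replicate 2 and Mir29c was not distinguishable. The log2 ratio of replicate 2 over replicate 1 was -0.27 for Mir29a (counting SE 0.03), which makes it 1.21-fold higher in replicate 1, with an adjusted p of 7.23e-15 in a two-sided exact binomial test of the counts with Benjamini-Hochberg adjustment over all tested genes. For Mir29c the log2 ratio was -0.002 (counting interval -0.18 to 0.18) and the adjusted p of the same exact test was 1. For Mir29b-1 it was 0.53 (-0.23 to 1.30, exact adjusted p = 0.296) and for Mir29b-2 it was -0.17 (-1.64 to 1.30, exact adjusted p = 1). For the 2 Mir29b genes a difference of the size of that in Mir29a was not detectable at this depth.

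So 1 of 4 members passed the test, in a comparison where 44.5% of the 440 genes tested did (196 genes), 27.0% being lower in replicate 2 and 17.5% higher. The median log2 ratio was -0.09 over the 4 members and -0.08 over all genes tested. The test compares 2 libraries by counting error and has no spread between animals or pools in it. With edgeR TMM or DESeq2 scaling, which shift every ratio by 0.08 and 0.07 on the log2 scale, the calls split into 98 lower and 96 higher in place of 119 and 77. Mir29a stayed past the test at -0.20 under both scalings, and Mir29c was at 0.07 under both without passing it.

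Other genes at the level of Mir29a differed as well. Of the 49 other genes within 2-fold of its mean level, 37 passed the test, 28 of them lower in replicate 2, and 20 had a larger absolute log2 ratio. The median absolute log2 ratio of these 49 genes was 0.23. Of the 58 other genes within 2-fold of the mean level of Mir29c, 33 passed, and their median absolute log2 ratio was also 0.23.

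The log2 ratio of Mir29a over Mir29c differed between the pools by -0.27, replicate 2 minus replicate 1 (counting SE 0.10, 95% counting interval -0.46 to -0.07). No test of this difference was run, and 2 libraries cannot give an exact two-sided sign-flip p below 0.5. Among the 16 other cluster pairs the absolute change between the libraries had a median of 0.17, and in 7 of them it was larger than for Mir29a over Mir29c. Mir29a over Mir29b-1 differed by -0.80 (counting interval -1.57 to -0.03) and Mir29c over Mir29b-2 by 0.17 (-1.32 to 1.65).

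**Figure D4:**
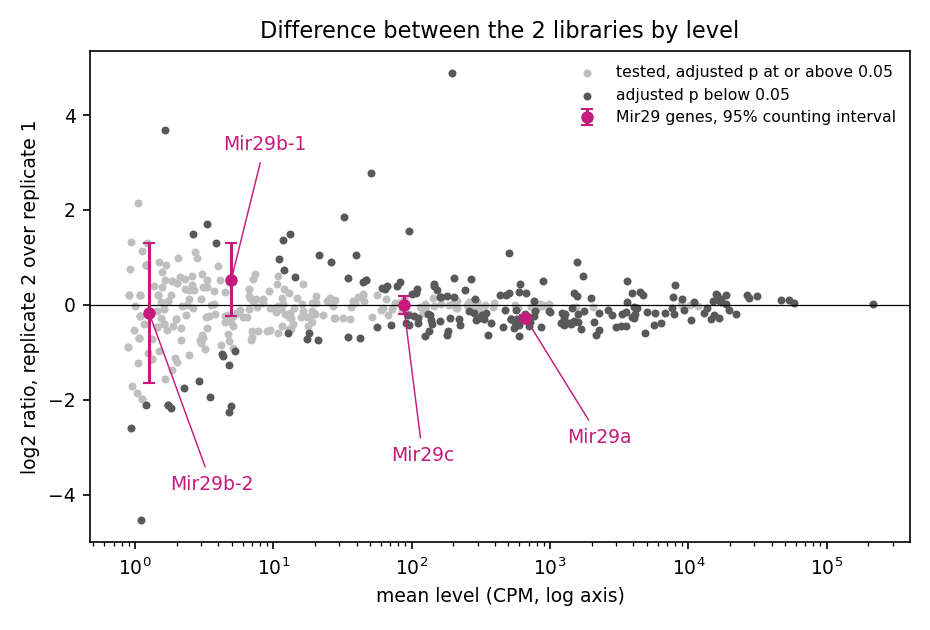
Log2 ratio of replicate 2 over replicate 1 against mean level in CPM (log axis) for the 440 genes tested, in dark grey those with an adjusted p below 0.05 in the exact binomial test; Mir29 genes are coloured, with bars of the 95% counting interval. Mir29a lies at -0.27, Mir29c at -0.002, and the bars of both Mir29b genes cross 0.

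Markers of several cell types differed between the pools as well. Over all 440 genes tested, 17.5% were higher in replicate 2 and 27.0% lower. Abundant genes pass the test on small differences, as Mir122 did at 1.006-fold. Replicate 2 held more of the intestinal list (Mir215 and Mir194-1, 26.6 CPM in replicate 1 and 427 in replicate 2, 2 of 2 genes higher) and the epithelial and biliary list (4266 and 6376 CPM, 5 of 5 higher). The muscle list summed to 1300.2 and 2257 CPM (2 of 4 tested genes higher, with Mir133a-1 and Mir133a-2 at 0 counts). Mir206 alone held 1104 and 2050 CPM of this, and Mir208b was at 36.9 and 51.7 CPM. Mir499 (144.7 and 143.1 CPM) and Mir133b (14.8 and 12.2 CPM) did not pass. The pancreas list summed to 1395 and 2105 CPM, with 1 of 4 genes higher and 1 lower. Hepatocyte markers, led by Mir122, summed to 218419 and 220335 CPM (2 of 3 higher), erythroid markers to 24071 and 27152 CPM (2 of 3 higher, 1 lower), the endothelial Mir126a stood at 45470 and 48546 CPM (1 of 1 higher), leukocyte markers summed to 17165 and 17947 CPM (1 of 4 higher) and neural markers to 283 and 290.1 CPM (1 of 5 tested genes higher, with Mir124a-1, Mir124a-3 and Mir9-2 at 0 counts). Mir142 of the leukocyte list, Mir1a-2 of the muscle list and Mir9-1 of the neural list had no row, so these sums leave them out. Mir9-2 shares its mature sequences with Mir9-1 and Mir9-3, so a 0 there is no sign of absence. Mir133a-1, Mir133a-2, Mir124a-1 and Mir124a-3 had no mature entry, so shared sequences could not be sought for them. Their counts of 0 cannot be read as absence either. Mir194-1 shares a mature sequence with Mir194-2, so its level is uncertain. The part of these marker differences in the difference of Mir29a was not tested. In whole liver, fewer cells of a type and less RNA per cell cannot be told apart.

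Stellate and other mesenchymal cells are those in which miR-29 is best known. Of the 8 genes of a stellate, mesenchymal and fibrosis list, 7 were tested, 4 were higher in replicate 2, 1 was lower and 2 did not pass, with a median log2 ratio of 0.02. The shares over all 440 genes tested were 17.5% higher and 27.0% lower. Mir143, a smooth muscle and fibroblast miRNA, was at 15059 and 17326 CPM, and Mir21a, which rises in fibrosis, at 18656 and 18974 CPM. Mir214 was the one lower in replicate 2, with 816 and 602 CPM (log2 -0.44, exact binomial adjusted p = 1.67e-39). Its mean level, 709 CPM, was the nearest in the list to that of Mir29a. Mir34a (62.6 and 58.2 CPM) and Mir199b (101.5 and 88.6 CPM) were nearest to Mir29c in level and did not pass. Mir199a-1 and Mir199a-2 averaged 0.476 and 11.0 CPM. Both share a mature sequence with each other and with Mir199b, and multimapping reads are left out, so the levels of these 3 genes are uncertain. The mesenchymal markers among them (6 genes) summed to 16177 CPM in replicate 1 and 18247 in replicate 2, with 3 of 5 tested genes higher and 1 lower.

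A second list held miRNAs known to repress other chromatin modifiers, the maintenance methyltransferase Dnmt1 (the miR-148 and miR-152 family) and the histone methyltransferase Ezh2 (miR-101 and miR-26). All 8 genes were tested. Beside shares of 17.5% higher and 27.0% lower over all 440 genes tested, 2 were higher in replicate 2, 2 were lower and 4 did not pass. Their median log2 ratio was 0.09. Mir26b was by far the highest at 50959 and 55091 CPM, and Mir101b was at 7341 and 8173 CPM, both higher in replicate 2. Mir148a, at 1570 and 1522 CPM, did not pass. Mir148b, at 297 and 263 CPM, and Mir152, at 101.5 and 87.6 CPM, were the 2 lower ones. In level, Mir29a lay between Mir148a and Mir148b, and Mir29c stood beside Mir152 and Mir101a (84.1 and 90.4 CPM). Mir26a-1 and Mir26a-2, at 7.08 and 41.0 CPM on average, share a mature sequence, and their levels are uncertain as well.

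With 2 libraries of 1 group, likeness to another gene can be given only as likeness of level. The genes directly around Mir29a in mean CPM were Mir872 (674 ± 82.8) and Mir467d (662 ± 62.6) above it and Mir301 (610.03 ± 133) and Mir16-2 (599.6 ± 79.4) below it, and none of these 4 means differed from that of Mir29a beyond the spread of the libraries. Those around Mir29c were Mir574 (91.4 ± 16.7) and Mir155 (87.3 ± 5.16) above and Mir101a (87.2 ± 4.39) and Mir132 (84.6 ± 5.38) below, likewise within their spread. All of these genes were chosen by closeness of mean level, so the small gaps follow from the choice and are no evidence of likeness. Of these 8 neighbours Mir872, Mir301 and Mir16-2 were higher in replicate 2 past the exact test, Mir467d and Mir574 lower, and Mir155, Mir101a and Mir132 did not pass. Mir29b-1 lay between Mir1930 (5.11 ± 1.12) and Mir3076 (4.94 ± 0.886), with Mir383 above and Mir6715 below these. Mir29b-2 lay between Mir7063 (1.32 ± 0.757) and Mir7052 (1.24 ± 0.638), with Mir5134 above and Mir7032 below. All of these means lay between 1.22 and 1.32 CPM, where single counts decide the order. Mir16-2 shares a mature sequence with Mir16-1 and may be counted low.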

How the data were processed

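Small RNA libraries of 2 liver pools were analysed. Raw counts per miRNA gene were deposited for each library in 3 columns without a header, irrespective of strand and by strand. The accompanying deposited text names assembly mm10 with annotation M4 of GENCODE. No aligner or counter is given in the sources used here. The column with the larger stranded total was the sense count. Names came from GENCODE M21 by version-free identifier (1894 of 1973 rows matched), and mature sequences from RefSeq (GRCm38.p6). No genome sequence was used, so copies were sought only among listed hairpins. Tally rows stayed out of totals; 42.0% and 41.9% of tallied reads were sense counts in genes.

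Genes with a summed count of 10 or more entered a two-sided exact binomial test, which sets the split of a gene's counts against that of the library totals (SciPy 1.17.1). P-values were adjusted by Benjamini-Hochberg over all of them, with a threshold of 0.05. No quasi-likelihood fit was possible with 1 group. Log2 ratios and folds have 0.5 added to each count. The test was checked on simulated data with counting error alone, so that check says nothing on the spread between pools. Alternatives used edgeR 4.0.16 and DESeq2 1.42.0 in R 4.3.3 for scaling. Genes named are the members, the 2 genes above and the 2 below each in mean CPM and examples of fixed lists. Members and lists were chosen with earlier results of these data known. Replicates are labelled biological; p-values measure only how the 2 libraries differ by counting.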

Additional observations from a re-analysis of the deposited data

How the results depend on the processing

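Of 102 recomputed values, 86 were kept by the rules that follow. Ratios between libraries had to keep their direction and their side of the threshold. Levels and gene-to-gene ratios had to stay within 1 SD between libraries. Numbers of genes were held to a looser limit on fold, so 98 lower genes in place of 119 count as kept. With 1 library left out, a value lies within 1 SD by construction, so its place among the 86 says nothing on stability. Mir29a was lower in replicate 2 past the exact test under all 7 alternatives run for it (log2 -0.27 to -0.20, adjusted p 4.76e-15 to 4.07e-08), and 1 Mir29 gene passed in all 6 run for the count. With the filter of 100 counts, neither Mir29b gene had enough counts to be tested (24 and 30 for Mir29b-1, 8 and 6 for Mir29b-2). The exact test uses raw counts, so the alternatives that change the pseudocount could move the ratio of Mir29a but not its p-value. The log2 ratio of Mir29c, which passed under none, changed sign to 0.0743 with edgeR TMM, 0.0715 with DESeq2 size factors, 0.000338 without the most abundant gene in the total and 1.95e-05 with a pseudocount of 5. Genes past the test numbered 179 to 206 over the 6 alternatives, but the number tested changed with the filter. Without a filter 195 of 708 passed, and with a filter of 100 counts 179 of 284, against 196 of 440 in the main run. The share of genes past the test therefore depends on the filter. Other denominators rescale levels by construction. Without the most abundant gene in the total, Mir29a was at 842 CPM, Mir29c at 111.04, Mir29b-1 at 6.32, Mir29b-2 at 1.61 and the family at 961. Over all tallied reads they were at 277, 36.6, 2.08, 0.529 and 317. Counts irrespective of strand put Mir29a at 608 CPM, Mir29c at 80.2, Mir29b-1 at 4.56, Mir29b-2 at 1.16 and the family at 694. No Mir29 gene had counts on the other strand, so only the denominator differed. Of these levels only that of Mir29c moved by more than 1 SD, which for Mir29c was 0.096 CPM in the main run. A pseudocount of 5 lowered Mir29c over Mir29b-2 to log2 5.34, since Mir29b-2 has at most 8 counts. With 1 library left out, the family was at 694 or 817 CPM, Mir29a over Mir29c at log2 2.78 or 3.05, Mir29a over Mir29b-1 at 6.65 or 7.45 and Mir29c over Mir29b-2 at 5.93 or 6.10. Counts of 6 to 30 limit both Mir29b genes. No paired analysis was possible because there is 1 group.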
